A study of Mus musculus with 10 samples.

Results

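The variable (V) genes of the T cell receptor were examined in RNA sequencing of mouse CD8+ T cells that had been co-cultured with 4T1 cells, a mouse mammary carcinoma line, in the absence (CD8+4T1, n = 5) or presence (CD8+4T1+NaAc, n = 5) of sodium acetate (NaAc). Members were chosen by their biotype, TR_V_gene, and selected on the measured expression itself, with a value above 0 FPKM (fragments scaled to gene length and library depth) in at least 1 of the 10 samples. By this rule 126 of the 144 listed TR_V_gene rows, out of 57825 listed genes, were members, namely 97 of 110 Trav genes (α chain), 22 of 22 Trbv genes (β chain), 4 of 7 Trgv genes (γ chain) and 3 of 5 Trdv genes (δ chain). In both groups the T cells came from spleens of female BALB/c mice and were purified with a CD8+ T cell isolation kit, so no genetic alteration separated the groups. All cells were stimulated on anti-CD3-coated plates with anti-CD28 and IL-2 for 12 h and then kept for 24 h, with 5 mM NaAc in the CD8+4T1+NaAc group, before 48 h with 4T1 cells, and the sample labels give day 3. The replicates are not said to come from separate mice or cultures, so p-values measure the spread between these samples, which may be technical.

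A T cell receptor is a pair of chains, α with β in most CD8+ T cells, and each chain is made by joining a V segment to a joining (J) segment, with a diversity segment between them in β and δ chains. The joined gene is transcribed together with a constant gene, so the V gene found in the RNA tells which segment the cell rearranged, and a clone of T cells carries it unchanged through division. In bulk RNA the level of a V gene therefore adds up how many cells carry it and how much receptor RNA each of them holds, and these parts cannot be told apart here.

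The V segment ends just after a conserved cysteine codon, and the bases that follow it are the start of the antigen-contacting loop that V(D)J joining completes. The ends of the V genes on which the results turn are shown, each as the last 60 bases of its coding exon in the GENCODE vM21 transcripts (GRCm38), with the part from the cysteine codon onward in capitals. The codon was marked where a TAT or TAC codon, any codon and TGT or TGC followed each other, which was found in 97 of 97 Trav and 20 of 22 Trbv members. In Trbv1 the pattern was not found in these letters and nothing is marked. The first group holds the β genes called between groups, with Trbv13-1 added as the remaining member of the Trbv13 family.
Trbv13-2, chr6:41121773-41121832, + strand: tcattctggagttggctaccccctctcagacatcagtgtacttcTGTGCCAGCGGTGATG
Trbv13-1, chr6:41116409-41116468, + strand: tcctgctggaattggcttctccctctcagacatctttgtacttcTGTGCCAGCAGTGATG
Trbv13-3, chr6:41130526-41130585, + strand: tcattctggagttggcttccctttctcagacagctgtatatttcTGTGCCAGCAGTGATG
Trbv1, chr6:40891826-40891885, + strand: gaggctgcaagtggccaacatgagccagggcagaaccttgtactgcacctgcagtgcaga
Trbv2, chr6:41047936-41047995, + strand: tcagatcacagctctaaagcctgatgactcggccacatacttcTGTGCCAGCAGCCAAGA
Trbv3, chr6:41048769-41048828, + strand: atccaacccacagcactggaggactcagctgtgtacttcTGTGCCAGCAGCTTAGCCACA
Trbv20, chr6:41188918-41188977, + strand: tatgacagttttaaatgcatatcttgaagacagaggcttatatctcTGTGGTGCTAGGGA

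From the cysteine codon, TGTGCCAGC came first in 12 of the 20 marked Trbv members but not in Trbv20. The second group holds α genes, first those that differed between groups beside a close relative (Trav3-3 for Trav3-4), then the pair with the highest level and a pair of copies.
Trav3-4, chr14:53777517-53777576, + strand: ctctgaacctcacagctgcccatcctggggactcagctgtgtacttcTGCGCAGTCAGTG
Trav3-3, chr14:53666447-53666506, + strand: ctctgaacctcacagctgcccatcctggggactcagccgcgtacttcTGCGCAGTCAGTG
Trav6-1, chr14:52638903-52638962, + strand: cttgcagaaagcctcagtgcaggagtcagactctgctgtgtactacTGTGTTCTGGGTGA
Trav15-1-dv6-1, chr14:53560188-53560247, + strand: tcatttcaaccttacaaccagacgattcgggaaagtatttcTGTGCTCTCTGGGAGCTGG
Trav14d-3-dv8, chr14:53078986-53079045, + strand: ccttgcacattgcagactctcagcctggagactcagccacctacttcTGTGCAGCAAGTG
Trav8d-2, chr14:53042832-53042891, + strand: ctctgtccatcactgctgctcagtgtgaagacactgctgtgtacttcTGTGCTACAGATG
Trav8d-1, chr14:52778936-52778995, + strand: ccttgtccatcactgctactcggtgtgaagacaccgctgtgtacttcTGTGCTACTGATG
Trav7-4, chr14:53461679-53461738, + strand: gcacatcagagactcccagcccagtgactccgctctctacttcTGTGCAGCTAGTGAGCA
Trav7d-4, chr14:52770333-52770392, + strand: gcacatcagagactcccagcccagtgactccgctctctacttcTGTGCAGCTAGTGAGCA

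Trav7-4 and Trav7d-4 ended in the same 60 bases, and 77 of 97 Trav members shared the bases from the cysteine codon onward with another Trav member, against 6 of the 20 marked Trbv members. In the deposited table the Trbv members lie on chromosome 6 between 40868163 and 41535386, the Trav members on chromosome 14 between 52665385 and 54215135, and the Trgv members on chromosome 13. These positions are of a build that is not given in the sources used here, and 0 of 126 members had the GRCm38 start and end.

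The V genes held few fragments of each library. FPKM multiplied by gene length gave whole fragments, and all members numbered 3230 to 3840 of these in the CD8+4T1 libraries (median 3654) and 2417 to 3229 in the CD8+4T1+NaAc libraries (median 2917), of 16306447 to 18853726 fragments to which the FPKM of a sample refer. Between 72 and 104 members were above 0 in a sample and 57 were above 0 in every sample, whereas 10 were above 0 in 1 sample only. At the margin of the rule, 12 members had 3 or fewer fragments over all 10 samples, and the 18 rows left out were at 0 in all of them. A count of 0 allows up to 3 fragments, which for a V gene of 340 bases such as Trbv13-2 is 0.468 to 0.541 FPKM per sample, and this limit covers counting error only. Replicate 1 of CD8+4T1+NaAc stood apart, with the fewest members above 0 (72) and the fewest member fragments, and replicate 1 of CD8+4T1 came next with 82 members above 0. Values without one or the other library are given beside several of the results.

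Purity was checked by marker genes. Cd8a, the CD8 α chain, was between 72.2 and 81.9 FPKM in all samples and Cd4 between 0.335 and 0.796 FPKM in CD8+4T1 and between 1.39 and 1.87 FPKM in CD8+4T1+NaAc. Of 7 markers of 4T1 and epithelial cells, 5 were high enough to be tested and 4 were higher in CD8+4T1+NaAc, and their summed level was 6.72 to 16.7 FPKM in CD8+4T1 and 61.6 to 167 FPKM in CD8+4T1+NaAc. Krt19 was at 0 in 1 CD8+4T1 and 3 CD8+4T1+NaAc samples, and the others of the list were above 0 in every sample. The part of 4T1 RNA in the V gene results that follow was not tested.

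In FPKM as listed, the sum of the β chain V genes was lower in CD8+4T1+NaAc. The Trbv genes summed to 347, 349, 448, 441 and 409.6 FPKM in CD8+4T1 replicates 1 to 5 and to 238, 293, 316, 307 and 303 FPKM in the CD8+4T1+NaAc replicates. Every CD8+4T1+NaAc sample was below every CD8+4T1 sample, with means of 399 ± 48.7 and 291 ± 31.1 FPKM (SD, n = 5 each) and a ratio of 0.731, or 0.765 without replicate 1 of CD8+4T1+NaAc. The Trav genes summed to 154, 146, 169, 164 and 171 FPKM in CD8+4T1 and to 127, 146, 140.2, 137 and 147 FPKM in CD8+4T1+NaAc. Here the groups overlapped, with means of 161 ± 10.7 and 139.6 ± 8.44 FPKM and a ratio of 0.869. β genes made up 69.3% to 72.9% of the Trav and Trbv sum in CD8+4T1 and 65.3% to 69.3% in CD8+4T1+NaAc. The share of the scaling fragments that lay in listed genes moved with the groups too, at 95.5% to 97.9% in CD8+4T1 and 89.8% to 92.1% in CD8+4T1+NaAc without overlap, and with FPKM at the same total over the listed genes the log2 ratio of the Trbv sums was -0.27. The sums are given without a test, since they are scores over the chosen genes, and with FPKM rescaled to 5 CD3 and CD8 genes the log2 ratio of the Trbv sums was -0.19 in place of -0.45 and that of the Trav sums was 0.060 in place of -0.20.

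**Figure D1:**
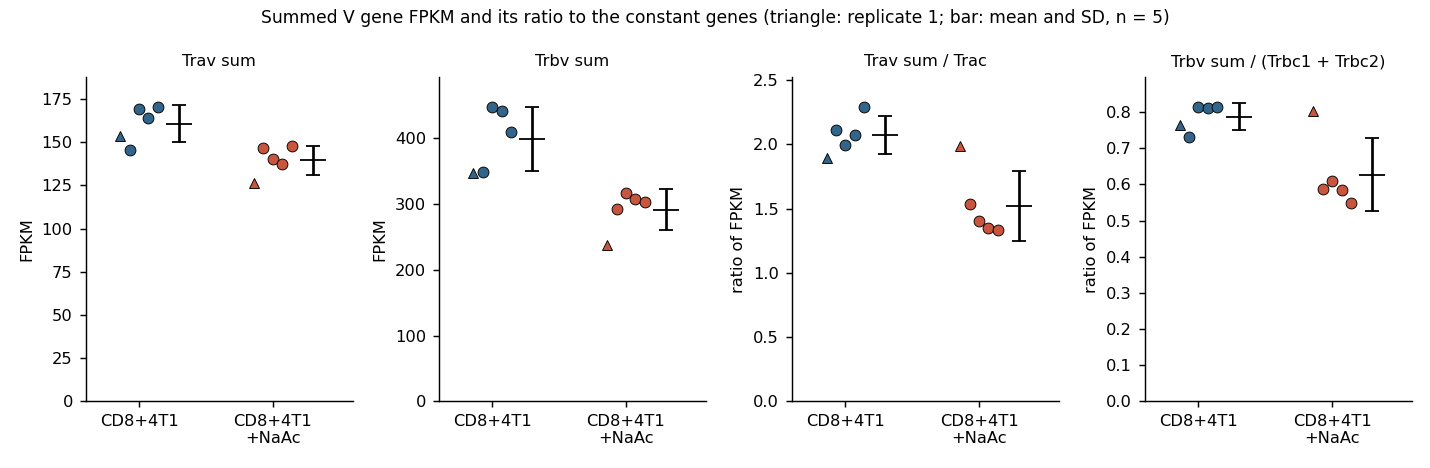
Summed FPKM of the Trav and Trbv genes and the ratio of each sum to the constant genes of the same chain (vertical axes, FPKM or ratio of FPKM) in the 5 samples of each group, with replicate 1 as a triangle and the mean and SD beside the points. The Trbv sum did not overlap between groups (346.7 to 447.8 against 237.9 to 316.4 FPKM), and in both ratios replicate 1 of CD8+4T1+NaAc lay among the CD8+4T1 samples while replicates 2 to 5 lay below them.

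The constant genes, which every chain of a kind carries, were not called between groups. Trac, the α constant gene, was between 68.9 and 84.7 FPKM in CD8+4T1 and between 63.7 and 110.6 FPKM in CD8+4T1+NaAc (log2 fold change 0.26 ± 0.13 SE, limma adjusted p = 0.156). Trbc1 and Trbc2, the β constant genes, had log2 fold changes of -0.15 ± 0.15 and -0.08 ± 0.16 (SE, limma adjusted p = 0.485 and 0.718). Without replicate 1 of CD8+4T1+NaAc, Trac did not overlap between groups (95.3 to 110.6 FPKM in CD8+4T1+NaAc), and the ratios of the group means were 1.31 for Trac, 1.005 for Trbc1 and 1.06 for Trbc2, in place of 1.21, 0.920 and 0.965. The Trav sum was 1.89 to 2.29 times Trac in CD8+4T1 and 1.33 to 1.54 times Trac in CD8+4T1+NaAc replicates 2 to 5, while replicate 1 of CD8+4T1+NaAc had a ratio of 1.99. The Trbv sum was likewise 0.732 to 0.815 times the sum of Trbc1 and Trbc2 in CD8+4T1 and 0.549 to 0.609 times in CD8+4T1+NaAc replicates 2 to 5, with 0.804 in replicate 1. In that library Trbc1 (119 FPKM) and Trbc2 (177 FPKM) were below all other samples, and its Trac (63.7 FPKM) and Trav and Trbv sums were the lowest of its group too.

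β chain usage was led by Trbv13-2 (formerly Vβ8.2), which held 29.2% ± 2.20 of the Trbv sum in CD8+4T1 and 24.4% ± 1.85 in CD8+4T1+NaAc (SD, n = 5). Trbv1, Trbv29 and Trbv13-1 followed with mean shares over all samples of 11.2%, 10.6% and 9.48%, and their shares overlapped between groups. Trbv14 (6.53%), Trbv12-2 (5.11%), Trbv31 (4.49%), Trbv20 (4.38%), Trbv2 (4.21%) and Trbv13-3 (3.99%) completed the 10 genes with the highest share. These 10 genes held 87.1% to 88.7% of the Trbv sum in CD8+4T1 and 85.2% to 86.7% in CD8+4T1+NaAc, without overlap. The 3 members of the Trbv13 family, whose reference transcripts were 86.1% to 90.6% identical, held 39.4% to 42.5% of the sum in CD8+4T1 and 37.2% to 43.5% in CD8+4T1+NaAc. At the other end, Trbv26, Trbv4, Trbv5, Trbv21 and Trbv23 each held under 0.5% on average, from 0 to 12 fragments in a sample.

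**Figure D2:**
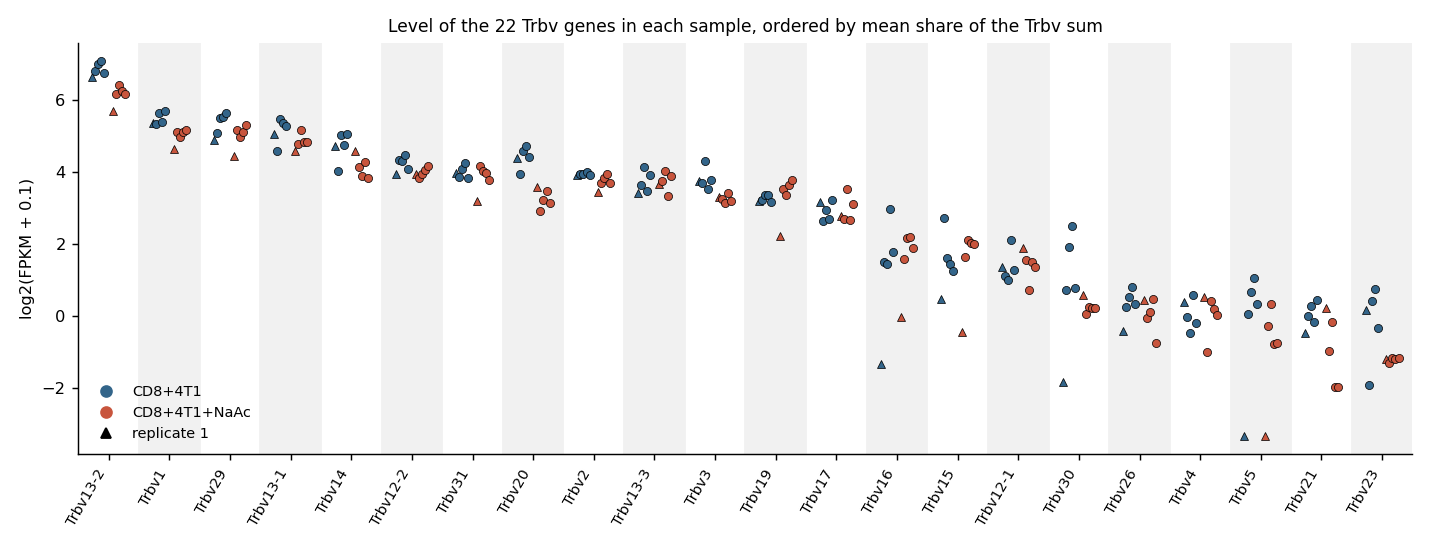
Level of each of the 22 Trbv genes (vertical axis, log2(FPKM + 0.1)) in every sample, ordered from left to right by mean share of the Trbv sum, with CD8+4T1 in blue, CD8+4T1+NaAc in red and replicate 1 as a triangle. Trbv13-2, Trbv1, Trbv20 and Trbv3 did not overlap between groups, and Trbv5 was at 0 FPKM in replicate 1 of both groups.

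To ask which V genes differed in level, limma, a linear model with moderated variances, was fitted to log2(FPKM + 0.1) of all 15710 genes that averaged 0.5 FPKM or more, 69 of them members (46 Trav, 22 Trbv and Trdv1). A gene counted as called when its p, adjusted by Benjamini-Hochberg, was under 0.05. Of all genes tested 36.5% were called, 17.6% as higher and 19.0% as lower in CD8+4T1+NaAc. This balance rested on the scaling, with 2764 genes higher and 2978 lower as listed, 4918 and 1386 at the same total over the listed genes, and 6109 and 905 with scaling to CD3 and CD8 genes. Of the 69 members 8 were called (11.6%), 2 higher and 6 lower, a smaller share than over all genes, and with scaling to CD3 and CD8 genes 3 were called higher and 3 lower. Members leaned to lower values, with a negative log2 fold change in 49 of 69, the 6 called lower included, and a median of -0.30, beside -0.02 over all genes. Without replicate 1 of CD8+4T1+NaAc the member median was -0.14 with 42 of 68 negative, beside -0.003 over all genes. With FPKM scaled to CD3 and CD8 genes it was -0.044 with 39 of 69 negative, beside 0.24 over all genes. Without overlap between groups were 26.4% of all genes tested and 6 of the 69 members, 5 of them lower in CD8+4T1+NaAc.

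The most abundant β gene, Trbv13-2, was 99.3, 112, 128, 135 and 108 FPKM in CD8+4T1 replicates 1 to 5 and 51.8, 71.4, 85.0, 76.9 and 72.1 FPKM in CD8+4T1+NaAc. The groups did not overlap and its level fell by 0.71 ± 0.13 on the log2 scale (SE, limma adjusted p = 0.00159). Trbv20 (formerly Vβ15) was 21.1, 15.2, 23.98, 26.3 and 21.2 FPKM in CD8+4T1 and 11.9, 7.44, 9.22, 10.9 and 8.81 FPKM in CD8+4T1+NaAc. This was the largest fall among the called Trbv members, to a mean ratio of 0.448 (log2 fold change -1.15 ± 0.16 SE, limma adjusted p = 0.00031), again without overlap. Trbv1 (formerly Vβ2) was 40.7 to 51.6 FPKM in CD8+4T1 and 25.0 to 35.7 FPKM in CD8+4T1+NaAc, and Trbv3 was 11.5 to 19.5 and 8.66 to 10.7 FPKM. Both were called lower, with log2 fold changes of -0.49 ± 0.11 and -0.55 ± 0.12 (SE, limma adjusted p = 0.00519 and 0.00565). Both calls were lost when FPKM were scaled to CD3 and CD8 genes, at -0.22 and -0.29 (limma adjusted p = 0.0815 and 0.0767). Cd3d, Cd3e and Cd3g were themselves called lower in FPKM as listed. With scaling to the receptor constant genes Trbv3 lost its call too (limma adjusted p = 0.0797), while its log2 fold change was -0.56 ± 0.19 (SE). The other 18 Trbv members were not called, among them Trbv29, Trbv13-1 and Trbv14 with log2 fold changes of -0.32, -0.30 and -0.57, and Trbv13-3, Trbv19 and Trbv17 with 0.02, 0.05 and 0.03.

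To separate a gene's part of its chain from the level of the chain, the members of each chain were brought to the same Trav or Trbv sum in every sample and the fit was repeated over the same 15710 genes, of which 36.5% were called. Of the 22 Trbv members 4 were then called. Trbv20 held 6.08%, 4.37%, 5.35%, 5.96% and 5.17% of the Trbv sum in CD8+4T1 and 4.99%, 2.54%, 2.92%, 3.56% and 2.91% in CD8+4T1+NaAc, and Trbv13-2 held 26.3% to 32.1% and 21.8% to 26.9%. For each gene 1 CD8+4T1+NaAc sample reached into the CD8+4T1 range, replicate 1 for Trbv20 and replicate 3 for Trbv13-2, and both genes were called lower, with log2 fold changes of -0.70 ± 0.17 and -0.26 ± 0.07 (SE, limma adjusted p = 0.00777 and 0.0122). Trbv13-3 (formerly Vβ8.1) held 3.05%, 3.53%, 3.91%, 2.51% and 3.70% in CD8+4T1 and 5.28%, 4.58%, 5.18%, 3.22% and 4.91% in CD8+4T1+NaAc, and Trbv2 (formerly Vβ4) held 3.40% to 4.38% and 4.26% to 4.98%. They were called higher, with log2 fold changes of 0.47 ± 0.15 and 0.23 ± 0.08 (SE, limma adjusted p = 0.0353 and 0.047). These calls were fragile: that of Trbv13-3 was lost in 10 and that of Trbv2 in 12 of 19 alternative settings. Because the shares of a chain have a fixed sum, lower shares of Trbv13-2 and Trbv20 by themselves raise those of the other genes. The median log2 fold change over the 22 Trbv members at equal chain total was 0.15, and how much of each rise comes from this was not tested. Within the Trbv13 family the direction thus differed between Trbv13-2 and Trbv13-3, while Trbv13-1 was not called (0.15 ± 0.10 SE, limma adjusted p = 0.291), although a difference between these genes was not itself tested. In FPKM as listed, Trbv13-3 was 10.6 to 17.5 in CD8+4T1 and 9.91 to 16.4 in CD8+4T1+NaAc, so its rise is one of share and not of level. The level of Trbv2 ran the other way from its share (log2 fold change -0.22 ± 0.08 SE, limma adjusted p = 0.0504), and it was called lower in 5 of 23 alternatives.

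A group of β genes is known to be scarce in BALB/c mice, because superantigens of endogenous mammary tumor viruses delete most of the T cells that carry them. Of the 5 such genes listed, Trbv26 (formerly Vβ3), Trbv12-1 and Trbv12-2 (Vβ5), Trbv15 (Vβ12) and Trbv16 (Vβ11), all were detected in every sample and 0 were called by limma in either fit, beside 36.5% of all genes. In level, 1 had an unadjusted p under 0.05 (Trbv12-2), and it was called in 2 of 23 alternatives (lowest limma adjusted p = 0.0264). With voom on recovered fragments 0 were called. Together they held 5.80% to 9.27% of the Trbv sum in CD8+4T1 and 8.14% to 9.41% in CD8+4T1+NaAc. Most of this was Trbv12-2, at 15.4 to 22.2 FPKM and 14.2 to 18.0 FPKM, and without it the list held 1.36% to 3.69% and 2.69% to 4.06%. Trbv12-2 was also among the 10 Trbv genes with the highest mean share, so it was not scarce in these samples. Trbv26 was between 0.492 and 1.65 FPKM over all samples and Trbv12-1 between 1.56 and 4.21 FPKM. Trbv16 and Trbv15 varied most between replicates of the list. Trbv16 was 0.301, 2.74, 2.62, 7.78 and 3.35 FPKM in CD8+4T1 and 0.882, 2.93, 4.42, 4.46 and 3.63 FPKM in CD8+4T1+NaAc. Trbv15 was 1.29, 6.51, 2.98, 2.62 and 2.29 FPKM in CD8+4T1 and 0.632, 3.01, 4.26, 3.99 and 3.91 FPKM in CD8+4T1+NaAc. In both genes replicate 1 was the lowest sample of each group, and the groups overlapped.

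α chain usage was spread over many more genes. Trav8d-2 held 9.08% ± 1.297 of the Trav sum in CD8+4T1 and 7.77% ± 2.54 in CD8+4T1+NaAc (SD, n = 5), and Trav8d-1 followed with 6.58% ± 1.18 and 5.96% ± 2.50. Trav6-6, Trav3-3, Trav7-4, Trav2, Trav7d-4, Trav16n, Trav16d-dv11 and Trav14d-3-dv8 completed the 10 genes with the highest mean share, which together held 48.6% to 49.9% of the Trav sum in CD8+4T1 and 42.2% to 53.1% in CD8+4T1+NaAc. Each of these rested on few fragments, between 44 and 101 per sample for Trav8d-2 and between 8 and 67 for Trav16n. Trav16n, Trav3-3 and Trav6-6 varied most among Trav members with a mean of at least 5 FPKM, with coefficients of variation over all samples of 52.7%, 34.7% and 34.5%. Trav16n was 4.47, 8.98, 8.28, 4.09 and 9.78 FPKM in CD8+4T1 and 6.62, 5.88, 2.34, 3.42 and 1.16 FPKM in CD8+4T1+NaAc. Its groups overlapped and it was not called (log2 fold change -1.01 ± 0.46 SE, limma adjusted p = 0.11). Among the Trbv members with a mean of at least 5 FPKM the highest coefficients of variation were 44.5% (Trbv20), 31.5% (Trbv14) and 28.7% (Trbv13-2).

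**Figure D3:**
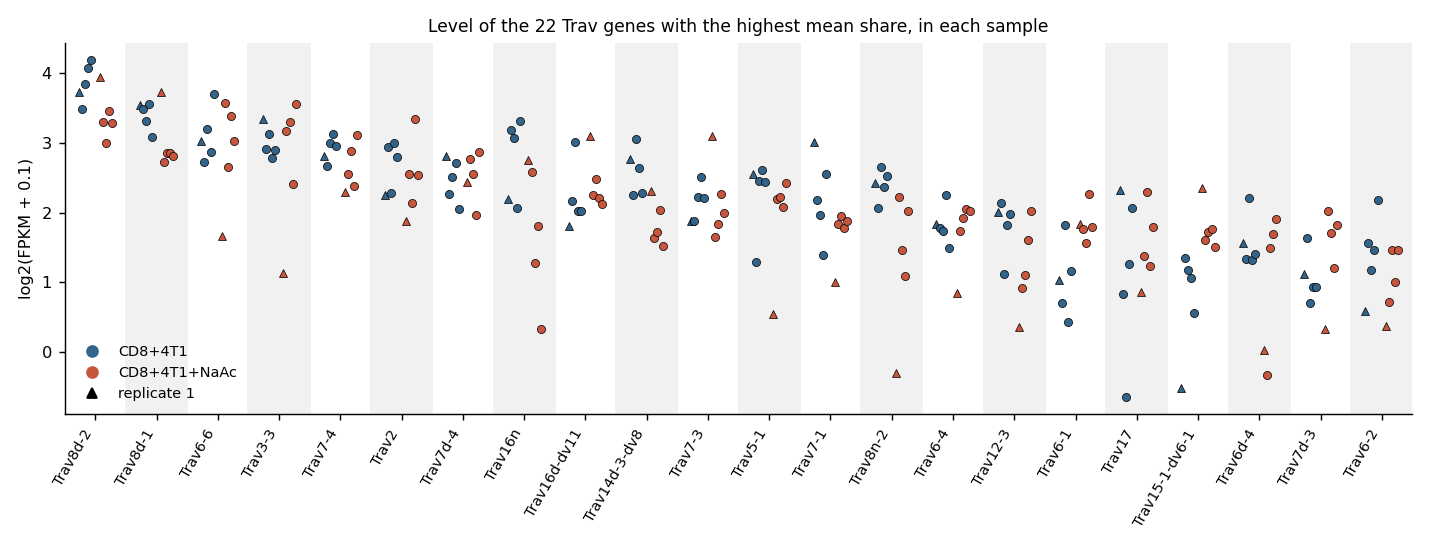
Level of the 22 Trav genes with the highest mean share of the Trav sum (vertical axis, log2(FPKM + 0.1)) in every sample, with CD8+4T1 in blue, CD8+4T1+NaAc in red and replicate 1 as a triangle. Replicate 1 of CD8+4T1+NaAc was the highest sample of its group in Trav8d-1 (13.2 FPKM) and the lowest in Trav5-1 (1.36 FPKM) and Trav7-1 (1.91 FPKM).

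Of the 46 Trav members tested, 4 differed in level (8.70%, beside 36.5% of all genes). Trav3-4 was 2.09, 2.75, 2.95, 3.58 and 2.51 FPKM in CD8+4T1 and 1.28, 1.04, 1.46, 1.29 and 1.18 FPKM in CD8+4T1+NaAc. It did not overlap between groups and fell by 1.08 ± 0.15 on the log2 scale (SE, limma adjusted p = 0.000271), while Trav3-3, which ends in the same bases from the cysteine codon onward, was not called (-0.30 ± 0.40 SE, limma adjusted p = 0.593). Trav14d-3-dv8 was 6.69, 4.65, 8.20, 6.12 and 4.78 FPKM in CD8+4T1 and 4.87, 3.02, 3.19, 4.02 and 2.77 FPKM in CD8+4T1+NaAc, where replicate 1 overlapped with CD8+4T1 (log2 fold change -0.75 ± 0.19 SE, limma adjusted p = 0.00942). Trav6-1 and Trav15-1-dv6-1 were the 2 members called higher, and neither was called with the replicate number as a block (adjusted p = 0.0615 and 0.0733). Trav15-1-dv6-1, which like the other genes with dv in the name can be used by α and by δ chains, was 0.605, 2.46, 2.17, 1.99 and 1.38 FPKM in CD8+4T1 and 5.02, 2.95, 3.21, 3.28 and 2.74 FPKM in CD8+4T1+NaAc. It did not overlap between groups and rose by 1.06 ± 0.33 on the log2 scale (SE, limma adjusted p = 0.0265). Trav6-1 was 1.95, 1.53, 3.45, 1.26 and 2.15 FPKM in CD8+4T1 and 3.46, 3.30, 2.87, 4.72 and 3.38 FPKM in CD8+4T1+NaAc, with 1 CD8+4T1 sample among the others (log2 fold change 0.81 ± 0.24 SE, limma adjusted p = 0.0197). These calls rested on few fragments, 9 to 27 per sample for Trav3-4, 7 to 27 for Trav6-1, 4 to 34 for Trav15-1-dv6-1 and 21 to 61 for Trav14d-3-dv8. The call of Trav15-1-dv6-1 was lost in 5 of 22 alternatives, among them leaving out replicate 1 of CD8+4T1+NaAc (adjusted p = 0.0515) or replicate 5 of CD8+4T1 (adjusted p = 0.0571), and that of Trav6-1 in 4 of 22, among them leaving out replicate 4 of CD8+4T1+NaAc (adjusted p = 0.0505). That of Trav14d-3-dv8 was lost in 2 of 21. With scaling to CD3 and CD8 genes its log2 fold change was -0.49 ± 0.19 (SE, limma adjusted p = 0.0577). With scaling to receptor constant genes it was -0.76 ± 0.27 (SE, limma adjusted p = 0.0878), about as large as with FPKM as listed.

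At equal Trav sum, 3 of these α genes were still called and none was added. With near-identical copies summed before the fit, 6 of 39 Trav rows were called at equal sum, 4 higher and 2 lower, and 6 in level, 3 higher and 3 lower (15.4% in each fit, beside 36.6% of all genes). Trav3-4 held 1.73% ± 0.329 of the Trav sum in CD8+4T1 and 0.900% ± 0.139 in CD8+4T1+NaAc (log2 fold change -0.89 ± 0.15 SE, limma adjusted p = 0.00111). Trav6-1 held 1.28% ± 0.472 and 2.55% ± 0.558 (1.01 ± 0.23 SE, limma adjusted p = 0.00555), and Trav15-1-dv6-1 held 1.08% ± 0.494 and 2.50% ± 0.845 (1.25 ± 0.34 SE, limma adjusted p = 0.0149, or 0.0531 with the replicate number as a block). The shares of these 3 genes did not overlap between groups. Trav14d-3-dv8 was no longer called (-0.55 ± 0.21 SE, limma adjusted p = 0.0572). It was called in 4 of 17 alternatives, among them the replicate number as a block (limma adjusted p = 0.0194). Over both chains 7 of 69 members (10.1%, beside 36.5% of all genes) were called at equal chain total, 4 higher and 3 lower, with a median log2 fold change of -0.064, which was 0.15 without replicate 1 of CD8+4T1+NaAc.

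**Figure D4:**
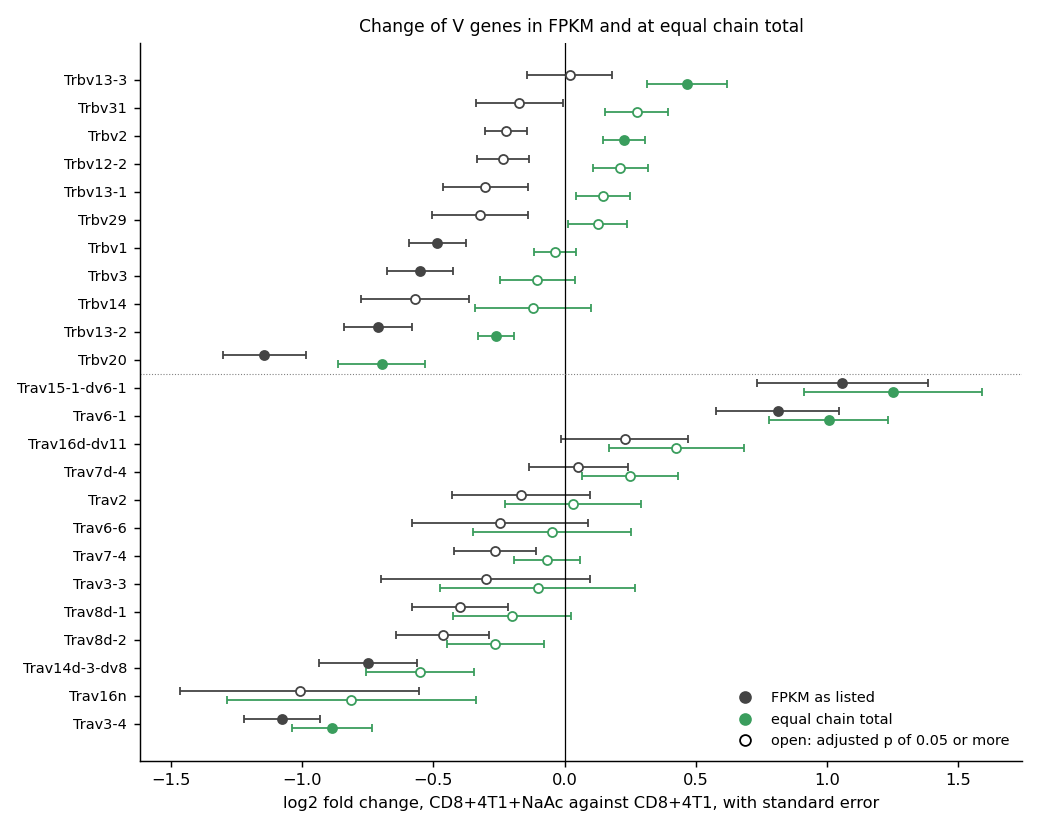
Log2 fold change of CD8+4T1+NaAc against CD8+4T1 with its standard error (horizontal axis) for the V genes that were called or are among the 10 with the highest share of their chain, in FPKM as listed (grey) and at equal chain total (green), with filled points for an adjusted p under 0.05. Equal chain totals moved the β genes to the right, so that Trbv1 and Trbv3 lay near 0 (-0.04 and -0.10) and Trbv13-3 and Trbv2 above it (0.47 and 0.23), whereas Trbv20, Trbv13-2 and Trav3-4 stayed below 0.

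The number of calls depended on replicate 1 of CD8+4T1+NaAc. Without that library 16 of 68 members were called in level, 3 higher and 13 lower, of which 7 had been called with all samples. This was 23.5% of the members tested, beside 44.3% of all genes under the same setting, so calls rose over all genes as well. The 9 added genes were Trbv2, Trbv14, Trbv19, Trbv21, Trav7d-3, Trav8d-1, Trav8d-2, Trav8n-2 and Trav16n, of which Trbv21, Trav7d-3 and Trav8n-2 fall outside the rule for named genes and were chosen after their values were seen. Trav8d-1 was 8.33 to 11.7 FPKM in CD8+4T1, 6.50 to 7.12 FPKM in CD8+4T1+NaAc replicates 2 to 5 and 13.2 FPKM in replicate 1, and without the latter its log2 fold change was -0.58 ± 0.10 (SE, limma adjusted p = 0.000819) in place of -0.40 ± 0.18 (SE, adjusted p = 0.113). Trbv19 moved the other way, with 8.89 to 10.3 FPKM in CD8+4T1, 10.3 to 13.7 FPKM in CD8+4T1+NaAc replicates 2 to 5 and 4.55 FPKM in replicate 1, and a log2 fold change of 0.33 ± 0.08 without it (SE, limma adjusted p = 0.0106). At equal chain total 12 of 67 members (17.9%, beside 44.3% of all genes) were called without that library, 5 higher and 7 lower, with Trbv19 (0.70), Trbv31 (0.36) and Trav7d-3 (0.78) as added rises and the 4 genes Trav8d-2, Trav8d-1, Trav14d-3-dv8 and Trav8n-2 as added falls (-0.43, -0.42, -0.70 and -0.54 on the log2 scale). Trbv13-3 and Trbv2 were no longer called (adjusted p = 0.0669 and 0.0576). Replicate 1 of CD8+4T1+NaAc was set apart in part by these same V gene values, those of Trav8d-1 and Trbv19 included. The calls added when it was left out are therefore no independent evidence of a difference. Without replicate 1 of CD8+4T1 instead, 10 members were called in level (14.7%, beside 34.3% of all genes) and 7 at equal chain total (10.3%, beside 34.3%).

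Mouse Trav genes occur in near-identical copies, marked d and n in their names, and this limits how far a level can be assigned to a copy. Of the 50-base windows of a Trav member's reference transcript, a median of 36.4% were found in no other V gene, against 100% for the Trbv members, and 30 of the 97 Trav members had no window of their own. Those 30 had a median level of 0.233 FPKM, and 4 of them had a mean of at least 0.5 FPKM. The 12 Trav members with at least 90% of windows of their own had a median level of 2.08 FPKM, and across the 97 Trav members the Spearman correlation of this share with the mean FPKM was 0.476, given as a description of genes that share copies and libraries. The reads of a copy pair cannot be assigned with certainty. Trav7-4 (6.88 FPKM on average) and Trav7d-4 (5.65 FPKM) differ at 2 of 451 aligned bases, while Trav6-6 (8.30 FPKM) and Trav6d-6 (0.349 FPKM) are identical over 344 bases. The genes called between groups are less affected, with 80.0% of windows unique in Trav3-4, 89.6% in Trav6-1, 91.9% in Trav15-1-dv6-1, 61.2% in Trav14d-3-dv8 and at least 98.8% in each Trbv member. Genes without a copy letter held 49.1% to 55.4% of the Trav sum in CD8+4T1 and 57.3% to 59.6% in CD8+4T1+NaAc replicates 2 to 5, but 45.0% in replicate 1. The reference is that of C57BL/6J mice, and the effect of strain differences from BALB/c on the counting was not tested.

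**Figure D5:**
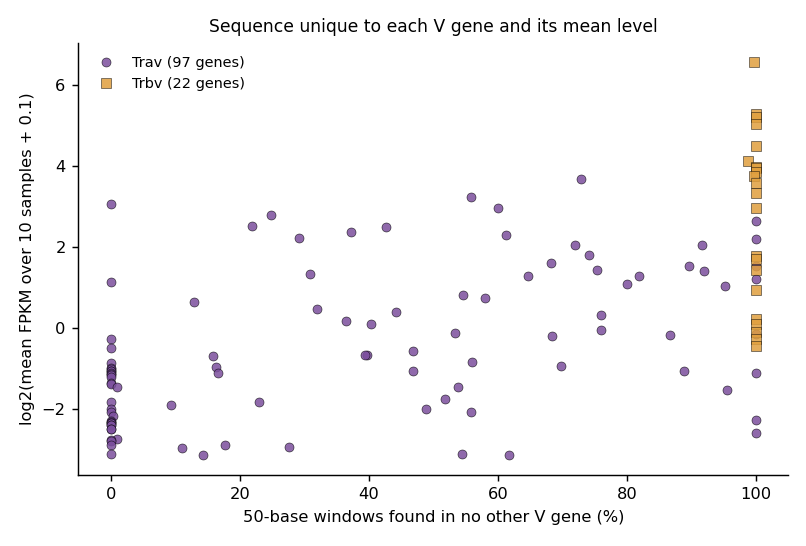
Mean level of each Trav and Trbv gene over the 10 samples (vertical axis, log2(mean FPKM + 0.1)) against the share of its 50-base windows that occur in no other V gene (horizontal axis, %). The 22 Trbv genes lie at 98.8% to 100%, and 30 Trav genes lie at 0%, of which Trav6-6 (8.30 FPKM) is the highest.

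The V genes of γδ T cells and of T cells with invariant α chains were at the edge of detection. Trgv and Trdv genes together held 0.156% to 0.621% of the V sum in CD8+4T1 and 0.404% to 0.759% in CD8+4T1+NaAc. Trdv1 was the only one of them high enough to be tested, at 0.7104, 1.02, 1.09, 0.720 and 0.360 FPKM in CD8+4T1 and 0.521, 2.05, 0.539, 1.23 and 1.43 FPKM in CD8+4T1+NaAc, with 2 to 13 fragments. The groups overlapped (log2 fold change 0.42 ± 0.39 SE, limma adjusted p = 0.445). Trdv4 was at most 0.682 FPKM, Trgv2 at most 0.834 FPKM and Trgv1 at most 1.07 FPKM, and the δ constant gene Trdc was between 0.333 and 0.642 FPKM. Trav11d, a copy of the α gene of invariant NKT cells, was 0 to 1.26 FPKM in CD8+4T1 and 0 to 1.04 FPKM in CD8+4T1+NaAc, and Trav11 was above 0 in 1 sample. Trav11d and Trav11 are identical over 342 aligned bases, and how fragments that match both were counted is not given. Their low levels therefore do not show how many such cells were present. Trav1, the α gene of MAIT cells, was at most 0.653 FPKM in CD8+4T1 and 1.43 FPKM in CD8+4T1+NaAc. V genes of immunoglobulins summed to 0 to 0.665 FPKM in CD8+4T1 and 0.499 to 3.56 FPKM in CD8+4T1+NaAc. The B cell markers of the marker list summed to 3.92 to 4.91 and 4.55 to 6.22 FPKM.

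The evenness of V usage was summarised as an effective number of genes, the exponential of the Shannon entropy of the shares, which would equal the number of genes if all were used alike. For the β chain it was 10.8, 10.8, 11.1, 11.2 and 11.2 in CD8+4T1 and 12.5, 11.8, 11.9, 12.1 and 11.96 in CD8+4T1+NaAc. Usage was thus more even in every CD8+4T1+NaAc sample, by 1.03 genes on average, which was 0.917 without replicate 1 of CD8+4T1+NaAc. For the α chain the effective number was 34.4, 39.1, 38.7, 38.1 and 38.1 in CD8+4T1 and 29.5, 41.2, 43.9, 39.8 and 39.8 in CD8+4T1+NaAc, with replicate 1 lowest in each group. The difference of the means was 1.15 genes with all samples, which was within their spread. It was 3.49 without replicate 1 of CD8+4T1+NaAc, 0.330 without replicate 1 of CD8+4T1 and -0.13 without replicate 3 of CD8+4T1+NaAc. Without replicate 1 of CD8+4T1+NaAc, that group (39.8 to 43.9) lay above every CD8+4T1 sample (34.4 to 39.1). No test is given for these scores.

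Between samples of a group, the median correlation of V gene shares was higher across Trbv members (0.956 in CD8+4T1 and 0.978 in CD8+4T1+NaAc) than across Trav members (0.812 and 0.739). The Trav members held fewer fragments over more genes, and the difference between chains was not tested. Across the 22 Trbv members the Pearson correlation of log2 shares between samples was 0.891 to 0.988 within CD8+4T1, 0.897 to 0.990 within CD8+4T1+NaAc and 0.899 to 0.977 between groups. Across the 46 tested Trav members it was 0.719 to 0.887 within CD8+4T1, 0.498 to 0.903 within CD8+4T1+NaAc and 0.450 to 0.828 between groups, and the 4 pairs with replicate 1 of CD8+4T1+NaAc lay at 0.498 to 0.544. These are correlations across genes, which are not independent replicates. Fragments varied between replicates by more than counting error. The chi-square of fragments per degree of freedom, which is about 1 for counting error alone, was 2.37 for Trav and 3.67 for Trbv members in CD8+4T1 and 3.89 and 3.30 in CD8+4T1+NaAc, or 1.99 and 1.57 in the latter without replicate 1.

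Other genes of the receptor were compared in the same fit. Of 19 genes of the receptor complex and of rearrangement, 11 were tested, 4 were lower and 1 was higher in CD8+4T1+NaAc, 5 of 11 where 36.5% of all genes were called. The CD3 chains Cd3d, Cd3e and Cd3g, which carry the signal of the receptor, fell by 0.54, 0.36 and 0.53 on the log2 scale (limma adjusted p = 0.00405, 0.000608 and 0.00171), and Cd247, the ζ chain, had a log2 fold change of -0.02. Dntt, the polymerase that adds bases at V(D)J joints, fell by 0.78 on the log2 scale from a mean of 0.790 FPKM (limma adjusted p = 0.0482). Rag2, of the recombinase, was listed at 0 in every sample, and Rag1 was at most 0.027 FPKM. Cd4 was the gene called higher (log2 fold change 1.44). Of the J genes, 46 of 51 Traj and 13 of 13 Trbj were tested, and Traj29 was called lower (-2.79, limma adjusted p = 0.0468) and Trbj2-5 higher (0.42, limma adjusted p = 0.0285). These rows are only 46 to 66 bases long, and their summed FPKM overlapped between groups, at 594 to 755 and 568 to 796 for Trbj.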

How the data were processed

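RNA of 5 CD8+4T1 and 5 CD8+4T1+NaAc samples, grouped by their labels, was sequenced by the study. The authors deposited 1 table of FPKM for 57825 genes, with a gene length per row. The submitters' processing notes name fastp, HISAT2 2.0.5, StringTie 1.3.3b and featureCounts 1.5.0-p3. The genome build, the strand setting and the treatment of fragments that match several genes are not given in the sources used here. FPKM times the deposited gene length gave whole fragments within 0.1 for 100% of values, on a scale of 16306447 to 18853726 fragments per sample. The values of the rarer genes thus rest on a few fragments.

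The members and lists were chosen with earlier results of these data known. The 15710 genes that averaged 0.5 FPKM or more were compared on log2(FPKM + 0.1) with limma 3.58.1 (R 4.3.3), with trend and robust moderation and Benjamini-Hochberg adjustment over all genes, two-sided, so fold changes of low genes are understated. A second fit brought Trav and Trbv genes to equal chain sums. Genes were named for a high share of their chain (10 per chain), for the largest rises and falls among called genes (5 each per fit), for a high coefficient of variation (3 per chain), for a sample set apart, and from lists of superantigen-deleted, NKT, MAIT and γδ V genes. Sequences and shared 50-base windows were read from GENCODE vM21 transcripts. Alternatives changed the pseudocount, filter, scaling, moderation, replicate block and handling of copies, or left out samples. Leaving out both first replicates, the scaling to receptor constant genes and, at equal chain total, the fit with voom (limma's weighting of counts) on recovered fragments were added after the data were seen. No pair of replicates was identical, and their fragments differed by more than sampling noise.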

Additional observations from a re-analysis of the deposited data

Results flagged for a closer look

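Samples that stood apart from the other 4 of their group were looked for in 168 groups of 5 values, the log2(FPKM + 0.1) of the tested V genes and the summary measures, by the ratio of the gap to the nearest other sample to the whole range of the group, with 0.71 as the limit. Of these, 30 passed. For independent, normally distributed values about 1 in 20 would pass, or 8.4 of 168. The values here depart from that, since several genes are at 0 in a sample and some measures share genes, so 8.4 is only a rough guide. Replicate 1 of CD8+4T1+NaAc was the sample apart in 19 of them, replicate 1 of CD8+4T1 in 5 and other samples in 6.

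In replicate 1 of CD8+4T1+NaAc the low genes with fragments were Trav5-1 (1.36 FPKM against 4.14 to 5.27 FPKM, ratio 0.818), Trav7-1 (1.91 FPKM against 3.33 to 3.78 FPKM, ratio 0.815), Trav6-4 (1.7 FPKM against 3.23 to 4.07 FPKM, ratio 0.732), Trbv19 (4.55 FPKM against 10.3 to 13.7 FPKM, ratio 0.737), Trbv16 (0.882 FPKM against 2.93 to 4.46 FPKM, ratio 0.735) and Trbv15 (0.632 FPKM against 3.01 to 4.26 FPKM, ratio 0.811). Listed at 0 there were Trav3-1 (0 FPKM against 1.72 to 4 FPKM, ratio 0.782), Trav12-1 (0 FPKM against 1.59 to 2.48 FPKM, ratio 0.871), Trav9d-1 (0 FPKM against 1.23 to 2.36 FPKM, ratio 0.807), Trav10n (0 FPKM against 0.702 to 1.72 FPKM, ratio 0.717), Trav6n-6 (0 FPKM against 0.83 to 1.48 FPKM, ratio 0.807) and Trav13d-1 (0 FPKM against 0.299 to 0.536 FPKM, ratio 0.748). Trav8d-1 (13.2 FPKM against 6.5 to 7.12 FPKM, ratio 0.871) was the gene that was high in it. Of the measures over many genes, its Trav effective number (29.5 against 39.8 to 43.9, ratio 0.712), its Trav members above 0 (47 against 69 to 76, ratio 0.759) and its Trbv members above 0 (21 against 22, ratio 1) were low. The last ratio is fixed at 1, because the other 4 samples are tied, and it carries no information, in either group. In both groups it is nevertheless counted among the 30 that passed. Trbc1 (119 against 201 to 215 FPKM, ratio 0.851) and Trbc2 (177 against 298 to 336 FPKM, ratio 0.762) were low too, and the Trbv sum over both (0.804 against 0.549 to 0.609, ratio 0.766) was high.

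In replicate 1 of CD8+4T1 the values apart were Trav13d-1 (0 FPKM against 0.774 to 1.07 FPKM, ratio 0.881), Trbv5 (0 FPKM against 0.935 to 1.98 FPKM, ratio 0.770), the Trav effective number (34.4 against 38.1 to 39.1, ratio 0.790), the Trav members above 0 (59 against 71 to 73, ratio 0.857) and the Trbv members above 0 (21 against 22, ratio 1). Replicate 2 of CD8+4T1 was low in Trav5-1 (2.34 FPKM against 5.3 to 6.02 FPKM, ratio 0.865) and Trav13d-4 (0.173 FPKM against 0.542 to 0.732 FPKM, ratio 0.768). Replicate 3 of CD8+4T1 was high in Trav6d-4 (4.54 FPKM against 2.41 to 2.85 FPKM, ratio 0.737) and replicate 4 in Trbv2 (15.9 FPKM against 15.1 to 15.3 FPKM, ratio 0.864). Replicate 2 of CD8+4T1+NaAc was low in Trbv23 (0.306 FPKM against 0.337 to 0.349 FPKM, ratio 0.731), and replicate 3 of that group was high in the Trbv13 family share (43.5% against 37.2% to 38.4% of the Trbv sum, ratio 0.813). What sets these libraries apart was not tested.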

How the results depend on the processing

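The count of 8 V genes called in level was 8 to 16 when 1 sample was left out, with the 16 reached without replicate 1 of CD8+4T1+NaAc, 18 when both first replicates were left out and 5 with scaling to the receptor constant genes. In these 3 settings the share of all genes called went from 36.5% to 44.3%, 44.6% and 11.1%, but counts of V genes and of all genes did not always move together: without replicate 2 of CD8+4T1 12 V genes and 31.8% of all genes were called, without replicate 5 of CD8+4T1+NaAc 11 and 33.9%, and with scaling to CD3 and CD8 genes 6 and 44.4%. The count of 7 at equal chain total was 5 to 12 when 1 sample was left out, with the 12 again reached without that library, 14 without both first replicates (20.3% of members, beside 44.6% of all genes) and 4 among genes that averaged 5 FPKM or more, where 22 members could be tested (18.2%, beside 47.8%). The log2 ratio of the Trav sums moved from -0.20 to -0.025 with FPKM at the same total and to 0.060 with scaling to CD3 and CD8 genes, and lay between -0.24 and -0.17 when 1 sample was left out. That of the Trbv sums moved from -0.45 to -0.27 and -0.19, and lay between -0.50 and -0.39. These scalings moved the median of all genes from -0.02 to 0.16 and 0.24. The Trbv difference in effective number was 1.38 by the inverse Simpson index and 0.92 to 1.09 when 1 sample was left out, and that of Trav was -0.13 to 3.49. Beyond the range over samples, the cause of these shifts was not tested.

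Trbv20 kept its call in all 23 level and 19 equal-total alternatives run. At equal chain total Trbv13-2 (adjusted p = 0.108) and Trav3-4 (adjusted p = 0.0515) lost theirs with voom on recovered fragments, and Trav15-1-dv6-1 with the replicate block (adjusted p = 0.0531). Whether equal replicate numbers pair samples across groups is not stated. The r of same-numbered deviations was -0.03 to 0.07 over 15710 genes, which cannot decide this. With the replicate number as a block 7 V genes were called in level, 0 higher and 7 lower, and 8 at equal chain total, beside 34.4% of all genes in each fit. In level the block lowered the SE of Trbv13-2 (0.130 to 0.066) and Trbv20 (0.158 to 0.087) and raised that of Trav15-1-dv6-1 (0.326 to 0.376). The rarer V genes rested on few fragments, and the effect of depth on their calls was not tested.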
